A study of Mus musculus with 6 samples.

Results

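The cardiac thin filament was described through 10 genes of the 49585 in a deposited table of mouse heart RNA. The genes were chosen by name as parts of the thin filament, by a rule that uses no measured value. They and the gene lists below were chosen with earlier results of these data known. All 10 genes were in the table. They comprise the troponin genes Tnnt2, Tnni3, Tnnc1 and Tnni1, the tropomyosin genes Tpm1, Tpm2, Tpm3 and Tpm4, and the pointed-end genes Tmod1 and Lmod2. The partial gravity (PG) hearts came from male mice 8 or 9 weeks old that lived at 0.167 g aboard the International Space Station, in cages turned at 31 rpm in a centrifuge of 15 cm radius. The ground control (GC) hearts came from male mice 8 or 9 weeks old kept at 1 g, of which there were 6 per mission. Each group had 3 RNA-seq libraries, here PG1 to PG3 and GC1 to GC3, made from powdered tissue after removal of ribosomal RNA. The labels name a strain, C57BL/6J, for the ground controls alone, and name no engineered allele or drug in either group. They neither tie a library to a mission nor say that libraries are separate mice, so the p-values reflect how far libraries differ, which may be technical. Flight at 1 g was not analysed here, and lunar gravity cannot be told apart from the rest of spaceflight.

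The thin filament is a double strand of actin with tropomyosin lying along it and a troponin complex at regular intervals. Troponin C binds calcium, troponin I holds the filament in the off state, and troponin T ties the complex to tropomyosin. When calcium rises in a cardiomyocyte, troponin shifts tropomyosin and myosin can bind actin, which starts each contraction. The heart switches from slow skeletal troponin I to cardiac troponin I around birth, and tropomodulin and leiomodin set the length of the filament at its pointed end.

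Total counts were 7095862 to 8271553 in PG libraries and 6461213 to 7209653 in GC libraries, and the 10 genes took 1.38% to 1.44% of the counts in each library. Mitochondrially encoded genes took 16.3% to 18.3%. Markers of cardiomyocytes were abundant, with summed levels of 81137 to 89282 CPM (reads as a share of the library after TMM scaling) in PG hearts and 107820 to 109860 CPM in GC hearts. Of these 8 markers 1 rose and 4 fell at an adjusted p under 0.05, against 3.77% of all genes tested that changed in either direction. The median log2 fold change (PG over GC) of the 8 markers was -0.13, beside 0.00 over all genes. Markers of skeletal muscle, which could come from attached tissue, summed to 25.0 to 29.9 CPM in PG hearts and 24.3 to 27.6 CPM in GC hearts, and 4 of those 10 genes (Tnnc2, Myh1, Myh2 and Myh4) had 0 counts in all 6 libraries. The file headers place GC3 under PG, against its title, which calls it a ground control. The title was followed here, and values without GC3 are given beside the results that it decides. In bulk tissue, fewer cardiomyocytes, less RNA per cardiomyocyte and lower levels of only some marker genes cannot be told apart.

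The RefSeq windows of 250 bases before the start sites show what lies upstream of the 10 genes (build GRCm38.p6). All 10 genes matched, with 13 windows, and 3 of these windows held no GENCODE M21 exon. Shown from those 3 are the windows of Tnnt2 and Tnnc1, whose PG levels lay on opposite sides of the GC levels. Neither gene was called by the edgeR test on exon reads below. Tpm1, called on intron reads below, had a window that held an exon and is not shown. Each is printed 5′ to 3′ on the strand of its gene, the plus strand, with capitals at the MCAT motif (CATTCC) and the GATA motif (AGATAA), searched on both strands.
Tnnt2 (chr1:135836084-135836333): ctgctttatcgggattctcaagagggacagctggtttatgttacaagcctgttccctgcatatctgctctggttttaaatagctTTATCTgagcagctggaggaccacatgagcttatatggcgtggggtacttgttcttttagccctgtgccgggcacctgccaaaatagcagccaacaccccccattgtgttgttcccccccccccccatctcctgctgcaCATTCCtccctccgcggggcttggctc
Tnnc1 (chr14:31208062-31208311): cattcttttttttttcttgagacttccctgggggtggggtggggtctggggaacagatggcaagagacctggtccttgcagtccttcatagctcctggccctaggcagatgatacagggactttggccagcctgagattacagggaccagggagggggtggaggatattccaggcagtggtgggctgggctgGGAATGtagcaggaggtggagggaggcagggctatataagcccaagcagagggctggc
In the Tnnt2 window, the capitals CATTCC begin 27 bases before the start site and the capitals TTATCT, the GATA motif on the other strand, begin 166 bases before it. In the Tnnc1 window the capitals GGAATG, the MCAT motif on the other strand, begin 58 bases before the start site. MCAT motifs, the recognition letters of TEAD factors, were in 4 of the 13 windows (of Tnnt2, Tnnc1, Tpm1 and Tmod1) and in 12.6% of all 32851 windows. The GATA motif was in 2 of the 13 windows (of Tnnt2 and Tpm3), against 9.99% of all windows. None of the 13 windows held TATAAA (12.4% of all windows), a CArG box (1.47%) or a MEF2 site (2.92%). The Tnnt2 window ends before the start of that gene as given below. The stretch just after this window was not found whole in a GENCODE M21 transcript of Tnnt2. The letters are a description of the windows and no binding was measured.

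Levels per length spanned the range from the main contractile isoforms to a fetal isoform near 0. The deposited RPKM (reads scaled by exon length and library size), averaged over the 6 libraries, was 625 for Tnni3, which encodes cardiac troponin I, and 624 for Tnnc1, which encodes the troponin C of heart and slow muscle. It was 424 for Tnnt2, which encodes cardiac troponin T, and 422 for Tpm1, the main cardiac tropomyosin. RPKM counts all exon reads, while the counts tested below leave out most reads that were not placed uniquely, so genes with many such reads, Tnnc1, Tpm3, Tpm4 and Tmod1, stand lower against the others in those counts. On the RPKM scale the first pair overlapped across libraries, as did the second, and each library had a higher RPKM for Tnni3 and Tnnc1 than for Tnnt2 and Tpm1. Below them came the leiomodin gene Lmod2 with 99.7 RPKM, the tropomodulin gene Tmod1 with 43.6, and the cytoskeletal tropomyosin Tpm4 with 24.2. Tpm2 had 5.29 RPKM and Tpm3 4.85, and these neighbours overlapped. Tnni1, the slow skeletal and fetal troponin I, had a mean of 0.085 RPKM.

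**Figure D1:**
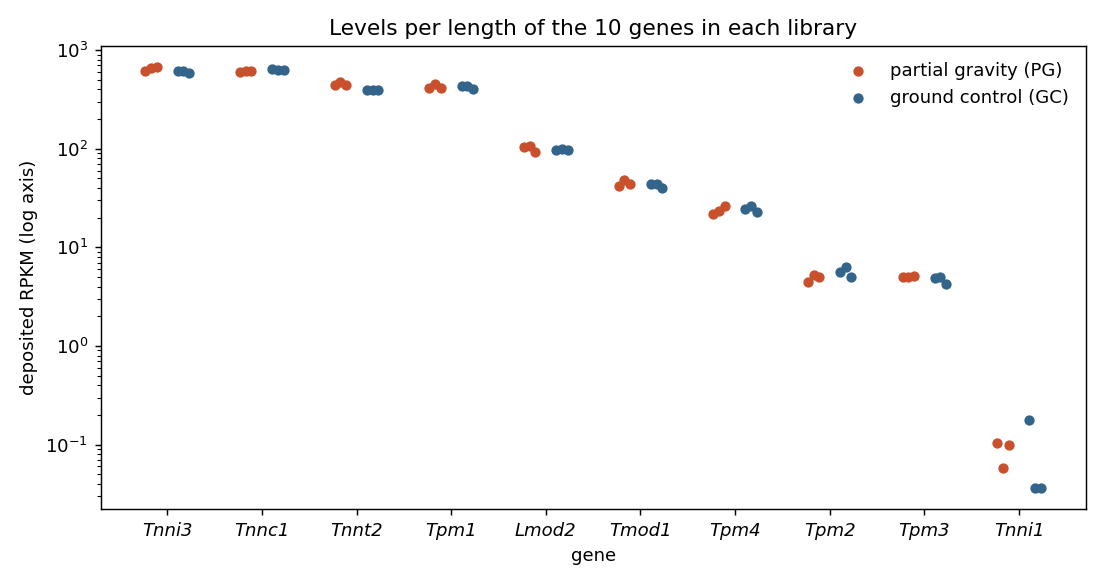
Deposited RPKM of each gene (log axis) in the 3 PG libraries (left of each pair) and the 3 GC libraries, 1 point per library, in order of the mean over 6 libraries. Levels ran from 625 RPKM for Tnni3 to 0.085 for Tnni1, and the pairs Tnni3 and Tnnc1, Tnnt2 and Tpm1, and Tpm2 and Tpm3 overlap.

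The comparison of PG with GC hearts asked whether lunar gravity goes with other levels of these transcripts. Among the 9 genes that passed the filter on low counts, 0 had an adjusted p under 0.05 in edgeR's quasi-likelihood test, while 3.77% of the 12258 genes tested did (1.56% higher and 2.21% lower in PG hearts, or 191 and 271 genes). With total-count scaling the balance turned, with 288 genes higher and 193 lower. Over all genes 462 were called, and 219 were called without GC2 and 232 without PG2. At an unadjusted p under 0.05 there were 2 of the 9, Tnnc1 and Tpm2, against 15.6% of all genes. DESeq2 also called 0 of the 9, and limma voom called Tnnc1. The log2 fold changes (PG over GC) of the 9 genes ran from -0.32 to 0.09 with a median of -0.08, beside a median of 0.00 over all genes. In size they had a median of 0.09, beside 0.11 over all genes. The groups did not overlap in CPM for 3 genes, Tnnt2, Tnnc1 and Tpm2, against 20.6% of the genes tested. On the deposited RPKM scale, the median gene was 0.12 (log2) higher in PG hearts, and relative to that shift 1 of the 9 genes lay above and 8 below.

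Tnnt2 (chr1:135836354-135852260, ENSMUSG00000026414) had 3741, 4095 and 3815 CPM in PG hearts, against 3607, 3621 and 3724 CPM in GC hearts. Every PG library lay above every GC library, by a margin that was small beside the spread among PG libraries. The log2 fold change was 0.09 ± 0.05 (SE, n = 3 each; 95% interval -0.02 to 0.20), with an adjusted p of 0.44 by edgeR.

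Tnni3 (chr7:4518305-4524229, ENSMUSG00000035458) had 2522, 2755 and 2817 CPM in PG hearts, against 2770, 2713 and 2703 CPM in GC hearts. The GC values all lay inside the range of the PG values. The log2 fold change was -0.02 ± 0.05 (SE, n = 3 each; edgeR adjusted p = 0.93), and its 95% interval runs from -8.30% to 6.61% of the GC level. The sign of this difference turned with total-count scaling and without PG1. The gene overlaps Dnaaf3 on the same strand, which had 5 to 15 counts.

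Tnnc1 (chr14:31208312-31211729, ENSMUSG00000091898) had 980, 1014 and 1034 CPM in PG hearts, against 1141, 1117 and 1149 CPM in GC hearts. All PG libraries lay below all GC libraries, and within each group the values were close to each other. The log2 fold change was -0.17 ± 0.05 (SE, n = 3 each; 95% interval -0.27 to -0.07), with an edgeR adjusted p of 0.056. Over all alternatives the adjusted p ran from 0.017, in reads that cross exon junctions, to 0.68, with GC3 grouped as the headers have it. It also passed the threshold without PG3 (0.029), in limma voom (0.041) and with no filter on low counts (0.040), but was 0.099 to 0.21 without any other library and 0.14 with total-count scaling. Of its exon reads 78.2% were placed uniquely. The gene overlaps Nisch on the other strand, which had 1927 to 2384 counts, and the use of strand in the counting is not given in the sources used here.

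Tnni1 (chr1:135779434-135810989, ENSMUSG00000026418) had counts of 6, 3 and 6 in PG libraries and 9, 2 and 2 in GC libraries. The groups overlapped at levels around the 3 counts that a count of 0 would allow, and the gene was left out by the filter. The summed counts were 15 in PG hearts and 13 in GC hearts. The slow share of troponin I, Tnni1 over the sum of Tnni1 and Tnni3 per kilobase, was 0.0135% ± 0.0042 in PG hearts and 0.0138% ± 0.013 in GC hearts (SD, n = 3 each). An exact two-sided permutation test gave p = 1.0, in a design that cannot go below p = 0.10. The limit of 3 counts covers counting error only, while the 95% intervals of the edgeR fits also take in differences between libraries.

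Tpm1 (chr9:67022590-67049406, ENSMUSG00000032366) was the most counted of the 10 genes. It had 5372, 5882 and 5456 CPM in PG hearts, against 6102, 5994 and 5795 CPM in GC hearts. The groups overlapped through PG2 and GC3. The log2 fold change was -0.10 ± 0.05 (SE, n = 3 each; 95% interval -0.21 to 0.01), with an edgeR adjusted p of 0.38.

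Tpm2 (chr4:43514711-43523765, ENSMUSG00000028464), the beta tropomyosin of slow and smooth muscle, had 26.3, 31.0 and 29.6 CPM in PG hearts, against 35.5, 40.2 and 32.5 CPM in GC hearts. Its PG values all lay below its GC values, with GC3 the nearest. This was the largest log2 fold change of the 9 genes in size, at -0.32 ± 0.10 (SE, n = 3 each; 95% interval -0.53 to -0.11), and its edgeR adjusted p was 0.081. The adjusted p was 0.0498 without GC3 and 0.041 with no filter on low counts, but 0.11 to 0.41 without any other library, 0.29 in DESeq2 and 0.65 in reads that cross exon junctions.

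Tpm3 (chr3:90072649-90100902, ENSMUSG00000027940), a slow muscle and cytoskeletal tropomyosin, had 37.3, 39.3 and 38.2 CPM in PG hearts, against 37.9, 38.2 and 37.1 CPM in GC hearts. Its values overlapped between groups, with a log2 fold change of 0.02 (95% interval -0.15 to 0.19) whose sign turned when all exon reads were counted. Tpm4 (chr8:72134975-72153142, ENSMUSG00000031799) had 33.7, 33.8 and 41.6 CPM in PG hearts, against 39.0, 45.3 and 38.2 CPM in GC hearts. PG3 lay inside the range of the GC libraries while PG1 and PG2 lay below it, and the log2 fold change was -0.16 (95% interval -0.37 to 0.04). These are the least certain of the tropomyosins, since 44.1% of the exon reads of Tpm3 and 28.1% of those of Tpm4 were placed uniquely.

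Within each library, Tpm1 made up almost all of the tropomyosin transcript. Its share of the 4 genes, per kilobase, was 96.3% ± 0.31 in PG hearts and 96.1% ± 0.29 in GC hearts (SD, n = 3 each; exact permutation p = 0.50, adjusted over the 4 shares 0.60). The share of Tpm2 was 1.05%, 1.13% and 1.16% in PG hearts, against 1.25%, 1.43% and 1.20% in GC hearts. The share of Tpm3 was 0.715%, 0.688% and 0.715% in PG hearts, against 0.637%, 0.651% and 0.656% in GC hearts. Neither of these 2 shares overlapped between groups, Tpm2 being lower and Tpm3 higher in PG hearts, and each gave p = 0.10, the smallest that an exact permutation test of 3 against 3 libraries can give (0.20 adjusted). The share of Tpm4 overlapped, at 1.86% ± 0.27 in PG hearts and 1.94% ± 0.17 in GC hearts. From the deposited RPKM, which counts all exon reads, the Tpm4 share was 5.22% ± 0.54 in PG hearts and 5.38% ± 0.20 in GC hearts, and that of Tpm1 was 92.6% ± 0.61 in PG hearts and 92.3% ± 0.34 in GC hearts (SD, n = 3 each). On that scale the Tpm2 shares still stood apart, while the Tpm3 shares overlapped (1.03% to 1.13% in PG hearts, 0.992% to 1.07% in GC hearts).

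Tmod1 (chr4:46038935-46116032, ENSMUSG00000028328), which caps the pointed end and stops actin from being added there, had 202, 223 and 212 CPM in PG hearts, against 226, 232 and 213 CPM in GC hearts. Lmod2 (chr6:24597762-24605414, ENSMUSG00000029683), which lets the filament grow at that end, had 417, 422 and 372 CPM in PG hearts, against 420, 427 and 433 CPM in GC hearts. Both overlapped between groups, Tmod1 through PG2 and GC3 and Lmod2 through PG2 and GC1. Their log2 fold changes were -0.07 (95% interval -0.19 to 0.04) for Tmod1 and -0.08 (-0.20 to 0.04) for Lmod2. Tmod1 overlaps Tstd2 on the other strand, which had 94 to 135 counts, and 60.2% of its exon reads were placed uniquely. The ratio of Lmod2 to Tmod1 per kilobase was 4.12, 3.78 and 3.49 in PG hearts, against 3.72, 3.67 and 4.05 in GC hearts, with the GC values inside the PG range. From the deposited RPKM it was lower, at 2.27 ± 0.20 in PG hearts and 2.31 ± 0.11 in GC hearts (SD, n = 3 each), and overlapped as well.

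**Figure D2:**
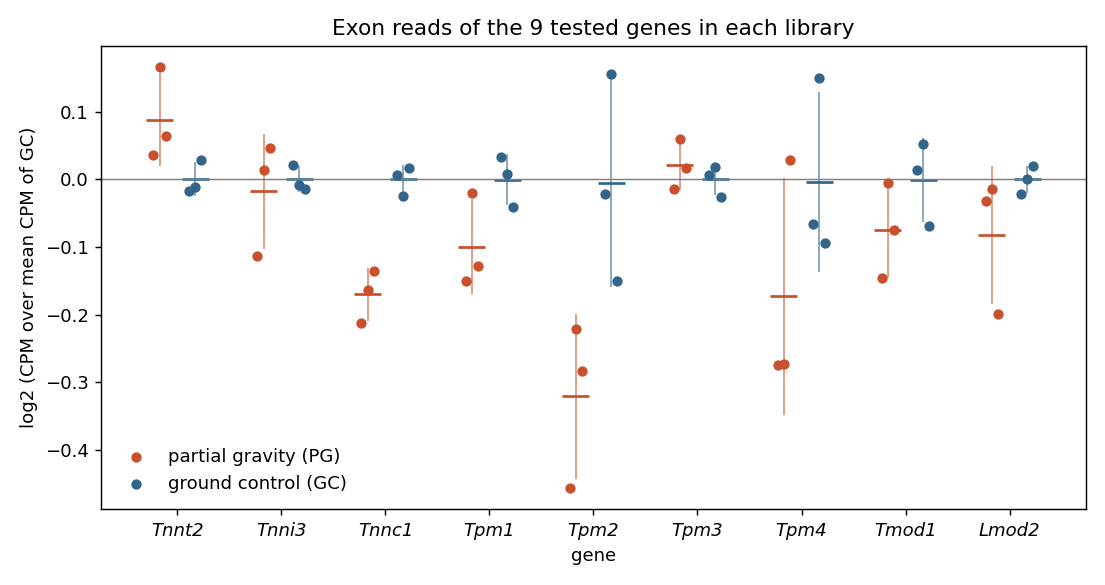
CPM of the 9 tested genes as log2 over the GC mean, with PG libraries left of GC libraries. Points are libraries, horizontal bars group means and vertical lines 1 SD either way (n = 3). The groups stand apart for Tnnt2 (PG above), Tnnc1 and Tpm2 (PG below), with log2 fold changes of 0.09, -0.17 and -0.32, none past the threshold.

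The 3 subunits of troponin act in equal numbers as protein, which RNA reads do not measure. Ratios of their reads within a library need no scaling between libraries. Tnnt2 over Tnnc1 per kilobase was 0.940, 0.994 and 0.908 in PG hearts, against 0.778, 0.798 and 0.798 in GC hearts. The lowest PG ratio lay above the highest GC ratio. The ratio of group means was 1.20, with an exact two-sided permutation p of 0.10, the smallest possible here (0.15 adjusted over the 3 subunit pairs).

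Tnni3 over Tnnc1 was 1.30, 1.37 and 1.37 in PG hearts, against 1.23, 1.23 and 1.19 in GC hearts. It too was higher in all PG libraries (exact permutation p = 0.10, adjusted 0.15). Tnnt2 over Tnni3 was 0.724, 0.725 and 0.660 in PG hearts, against 0.635, 0.651 and 0.672 in GC hearts, and PG3 fell inside the GC range (exact permutation p = 0.20). From the deposited RPKM, Tnnt2 over Tnnc1 was 0.718 to 0.774 in PG hearts, against 0.605 to 0.632 in GC hearts, and Tnni3 over Tnnc1 was 1.01 to 1.09 in PG hearts, against 0.940 to 0.961 in GC hearts. Which of Tnni3 and Tnnc1 had more reads per kilobase in GC hearts thus depended on the reads counted, while the groups stood apart on both scales. All ratios between genes given here were chosen after the CPM values had been seen, and the pairs share their genes.

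**Figure D3:**
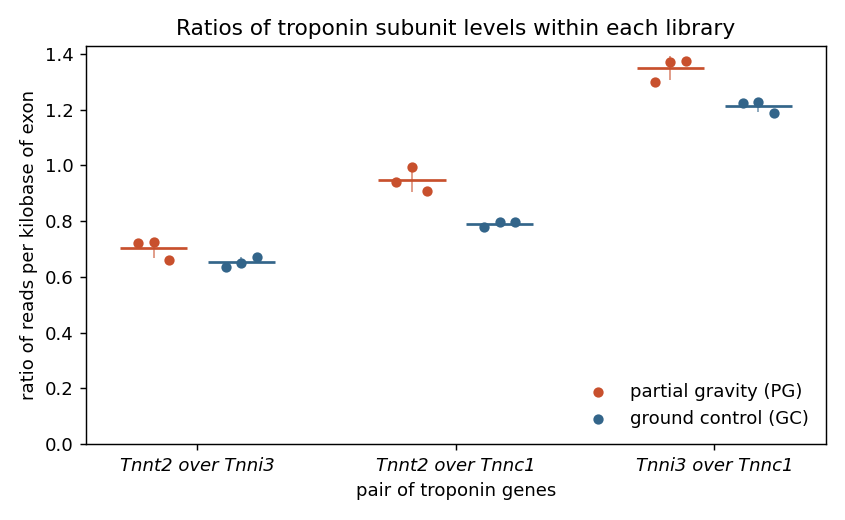
Ratios of reads per kilobase of exon between troponin genes, with PG libraries left of GC libraries; points are libraries, bars group means and vertical lines 1 SD either way (n = 3). Both ratios over Tnnc1 are higher in every PG library (Tnnt2 over Tnnc1 from 0.908 to 0.994 in PG hearts, against 0.778 to 0.798 in GC hearts), while Tnnt2 over Tnni3 overlaps.

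Tpm1 over Tnnt2 per kilobase was 0.937, 0.937 and 0.933 in PG hearts, against 1.10, 1.08 and 1.01 in GC hearts. The PG ratios were nearly equal to each other and all below the GC ratios (exact permutation p = 0.10, the smallest possible here). The pair was picked for the signs of its fold changes, so this p-value is no independent support. Tmod1 over Tpm1 overlapped, at 0.0627 ± 0.0011 in PG hearts and 0.0617 ± 0.0017 in GC hearts (SD, n = 3 each).

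Reads inside introns, which come mostly from RNA not yet spliced, gave another readout of the same genes. Tpm1 fell on this readout. It had 2359, 2321 and 2327 intron reads in PG libraries, against 2756, 3190 and 3510 in GC libraries, or 365, 437 and 392 intron CPM in PG hearts, against 519, 550 and 601 intron CPM in GC hearts. All PG values lay below all GC values. The log2 fold change was -0.48 ± 0.09 (SE, n = 3 each; 95% interval -0.67 to -0.30), 1.40-fold lower, with an edgeR adjusted p of 0.0067. Tpm1 was the 1 gene called of the 9 tested, while 2.56% of the 12776 genes tested on intron reads were called (2.25% lower and 0.313% higher). The call held without any 1 library, with adjusted p of up to 0.045, and at -0.43 without GC3 (0.026). It was lost (-0.25, adjusted p = 0.77) with GC3 grouped as the headers have it. No other gene of GENCODE M21 overlaps Tpm1.

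Tnnt2 had 935, 1096 and 1014 intron CPM in PG hearts, against 1166, 1099 and 1363 intron CPM in GC hearts. The groups did not overlap, though PG2 and GC2 nearly touched. Intron CPM stood apart between groups in 4 of the 10 genes, lower in PG hearts for Tpm1, Tnnt2 and Tmod1 and higher for Tpm3, against 18.8% of genes. The log2 fold change was -0.25 ± 0.09 (SE, n = 3 each) with an edgeR adjusted p of 0.23, and -0.16 (0.50) without GC3. Tmod1 had 121, 155 and 142 intron CPM in PG hearts, against 169, 157 and 165 intron CPM in GC hearts, with a log2 fold change of -0.23 ± 0.09 and an adjusted p of 0.27. With Tpm1, these were the 3 of the 9 genes at an unadjusted p under 0.05, against 13.7% of all genes.

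The remaining genes had fewer intron reads or overlapped between groups. Intron log2 fold changes were -0.17 for Tnni3, -0.25 for Tnnc1 and -0.12 for Tpm2, and 0.19 for Tpm3, 0.04 for Tpm4 and 0.12 for Lmod2, with adjusted p from 0.46 to 0.94. Tnni1 had 0 to 4 intron reads a library and was not tested. Tpm2 rested on 32 to 41 intron reads a library, and its sign turned without PG1. The signs of Tpm4 and Lmod2 turned with GC3 grouped as the headers have it, that of Tpm4 also without GC3.

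**Figure D4:**
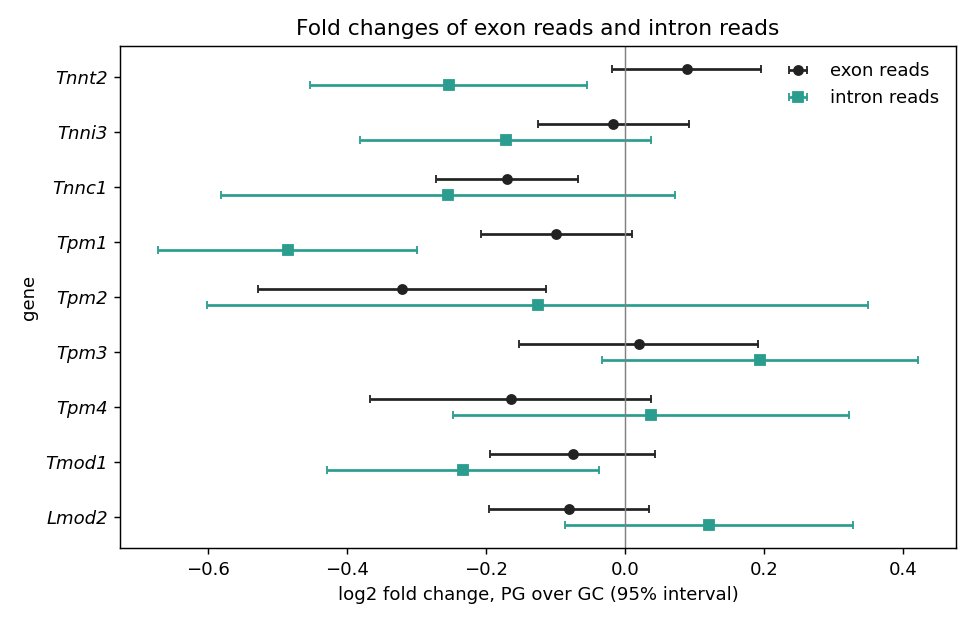
Log2 fold changes (PG over GC) of the 9 tested genes from exon reads (circles) and intron reads (squares), with 95% intervals from the edgeR fit. The intron interval of Tpm1, -0.67 to -0.30, lies apart from its exon interval, -0.21 to 0.01, and the exon and intron estimates of Tnnt2 (0.09 and -0.25) have opposite signs.

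The share of intron reads in the reads of Tpm1 was 5.17%, 5.28% and 4.87% in PG hearts, against 6.60%, 6.98% and 8.15% in GC hearts. For Tnnt2 it was 16.7%, 16.7% and 15.9% in PG hearts, against 21.2%, 19.9% and 23.9% in GC hearts. For Tmod1 it was 32.4%, 34.3% and 32.2% in PG hearts, against 38.3%, 35.6% and 39.9% in GC hearts. With Tnni3, these shares were lower in every PG library for 4 of the 10 genes, against 18.5% of genes (20.3% in either direction). The share over all tested genes other than these 10 moved the same way, at 31.1%, 29.5% and 28.8% in PG hearts, against 34.1%, 33.2% and 34.0% in GC hearts. Its part in the shares of the 10 genes was not tested, while the intron CPM above were scaled among intron reads.

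A fit of both kinds of read, with libraries as blocks, compared the intron change with the exon change. In this fit exon and intron reads were each scaled on their own, so the intron share of a whole library does not enter it. The fit called 0 of the 9 genes in edgeR, and 1.27% of 10802 genes. At an unadjusted p under 0.05 there were 2 of the 9, against 10.5% of those genes. For Tpm1 the difference was -0.38 ± 0.10 (SE, log2, n = 3 each; adjusted p = 0.051) and for Tnnt2 -0.33 ± 0.10 (adjusted p = 0.096). Without GC1 both passed, at adjusted p of 0.0023 for Tpm1 and 0.033 for Tnnt2. Without any other library neither did, with adjusted p of 0.13 to 0.24 for Tpm1 and 0.13 to 0.35 for Tnnt2, the highest being without GC3 (-0.31 for Tpm1 and -0.26 for Tnnt2). The share of exon reads that cross an exon junction ran from 7.16% in Lmod2 to 60.5% in Tnnt2. It overlapped between groups in all 10 genes, while it stood apart in 10.1% of the genes tested.

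**Figure D5:**
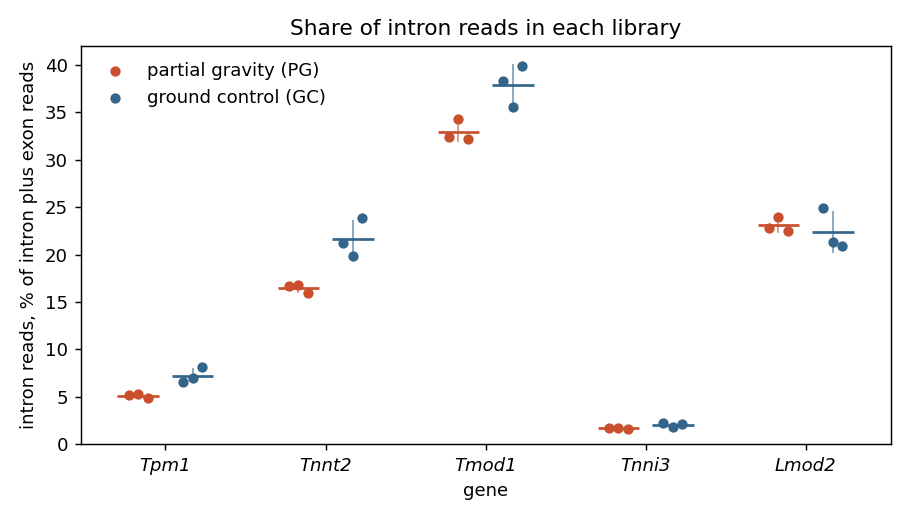
Intron reads as a percentage of intron plus exon reads, with PG libraries left of GC libraries; points are libraries, bars group means and vertical lines 1 SD either way (n = 3). The 4 genes whose groups stand apart are shown with Lmod2 (22.5% to 24.0% in PG hearts, 20.9% to 25.0% in GC hearts), chosen after their values were seen; Tpm1 has 4.87% to 5.28% in PG hearts and 6.60% to 8.15% in GC hearts.

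Among 27 partners of the thin filament, from actins to capping proteins and other troponins, 24 were tested. Of these 0 rose and 2 fell, against 3.77% of all genes called. At an unadjusted p under 0.05 there were 6 of the 24, against 15.6% of all genes. The median log2 fold change of the 24 was 0.00. Actc1, the cardiac actin that forms the filament's core, had 3139, 4124 and 3719 CPM in PG hearts, against 6667, 6278 and 5896 CPM in GC hearts. It fell by 0.78 on the log2 scale (SE 0.09, n = 3 each; edgeR adjusted p = 0.0011, and 0.069 without PG3). Of the exon reads of Actc1 71.1% were placed uniquely. Acta1, the skeletal actin that the heart also makes, had 65.8, 44.1 and 60.0 CPM in PG hearts, against 121, 105 and 108 CPM in GC hearts, and fell by 0.96 on the log2 scale (adjusted p = 0.0039). Of its exon reads 44.8% were placed uniquely, so reads of other actins could be among them. Actc1 over Tpm1 per kilobase was 2.34, 2.81 and 2.73 in PG hearts, against 4.38, 4.20 and 4.08 in GC hearts, with the groups apart. From the deposited RPKM the ratio was higher, at 3.22 to 3.95 in PG hearts, against 5.68 to 6.11 in GC hearts, with the groups again apart. The summed cardiomyocyte markers, given above, were also lower in PG hearts, and their part in this was not tested.

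Skeletal members of the troponin family were low. Tnnt1, the slow skeletal troponin T, had 34 to 54 counts in PG libraries and 40 to 46 in GC libraries, and a mean of 1.28 RPKM over the 6 libraries. The fast skeletal genes had 0 to 4 (Tnnt3), 2 to 12 (Tnni2) and 0 (Tnnc2) counts in PG libraries, against 0 to 1, 3 to 5 and 0 counts in GC libraries.

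Of 12 kinase and phosphatase genes that act on troponin I, all were tested, 1 rose and 0 fell, against 3.77% of all genes called. At an unadjusted p under 0.05 there were 4 of the 12, against 15.6% of all genes. The median log2 fold change of the 12 was -0.06. The gene that rose was Prkce, a protein kinase C that phosphorylates cardiac troponins. It had 69.6, 71.1 and 71.4 CPM in PG hearts, against 59.6, 57.1 and 54.3 CPM in GC hearts. Its log2 fold change was 0.31 ± 0.07 (SE, n = 3 each; edgeR adjusted p = 0.012). The adjusted p was 0.073 without GC2, 0.059 without GC3 and 0.061 without PG2.

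Of 11 splicing regulators of muscle, which choose among exons of Tnnt2 and the tropomyosins, edgeR called 0, against 3.77% of all genes. Also 0 were at an unadjusted p under 0.05, against 15.6% of all genes. DESeq2 and limma voom called 0 of the 11. Their median log2 fold change was -0.03. The smallest p was that of Mbnl2, at 289, 297 and 278 CPM in PG hearts, against 314, 309 and 288 CPM in GC hearts (log2 fold change -0.08, adjusted p = 0.56).

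Of 13 genes for transcription factors of thin filament promoters, among them MEF2, GATA, TEAD and serum response factor genes, edgeR called 0. It called 3.77% of all genes. At an unadjusted p under 0.05 there were 3 of the 13, against 15.6% of all genes. DESeq2 and limma voom called 0 of the 13. Their median log2 fold change was 0.03. Myocd, a coactivator of serum response factor, had the smallest p. It had 168, 194 and 166 CPM in PG hearts, against 155, 158 and 140 CPM in GC hearts, with every PG library above every GC library. Its log2 fold change was 0.22 ± 0.07 (SE, n = 3 each; edgeR adjusted p = 0.067), and the adjusted p was 0.044 without PG1 and 0.041 without PG3, but 0.12 to 0.36 without any other library.

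In 12 slow and fetal contractile genes, of which 11 were tested, 2 rose and 3 fell, against 3.77% of all genes called. This list, like the others, was chosen with earlier results of these data known. At an unadjusted p under 0.05 there were 8 of the 11, against 15.6% of all genes. The median log2 fold change of the 11 was -0.27. Myh7, the slow myosin heavy chain, had 1980, 1271 and 1043 CPM in PG hearts, against 103, 119 and 134 CPM in GC hearts. Its log2 fold change was 3.59 ± 0.33 (SE, n = 3 each; edgeR adjusted p = 0.015). The adjusted p was 0.081 without GC1, 0.099 without GC2, 0.068 without GC3 and 0.070 without PG2. The call held in 14 of 20 alternatives, among them DESeq2 (adjusted p = 2.9e-28) and limma voom (4.8e-09). It was lost in 6, among them GC3 grouped as the headers have it (0.53). Without 1 library the log2 fold change ran from 3.28 to 3.78. Tnni1, the slow isoform among the thin filament genes, had 15 summed counts in PG hearts and 13 in GC hearts.

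Tagln, a smooth muscle actin binding protein also made in the fetal heart, had 28.7, 26.7 and 31.2 CPM in PG hearts, against 20.4, 22.3 and 20.9 CPM in GC hearts, a log2 difference of 0.45 (adjusted p = 0.014, and 0.058 without GC1 or 0.068 without PG3). Acta1 is described above. Myh7b, another slow myosin, was at -0.39 (adjusted p = 0.0077, and 0.071 without GC1), and Acta2, the smooth muscle actin, at -0.33 (adjusted p = 0.031). The call of Acta2 was lost without GC1, GC2, GC3, PG1 or PG2, at adjusted p of 0.061 to 0.13. The count of called genes in this list was 1 without GC1, 3 without GC2 and 3 without PG2.

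In the authors' deposited table, which sets GC1 and GC2 against the other 4 libraries, 0 of the 10 genes had an adjusted p under 0.05, among 111 genes that did. The smallest of theirs in the authors' deposited table was that of Tpm2, with a signed fold change of -1.27 and an adjusted p of 0.48.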

How the data were processed

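Heart RNA was sequenced in 3 PG and 3 GC libraries. Per the file headers, the deposited table holds read counts of exons, exon junctions and introns for 49585 genes in 161 columns, with RPKM values. The authors' deposited comparison holds p-values, raw and adjusted, from an EDGE test, and a fold change with a sign (a score). The deposited counts were tested; the deposited RPKM describes levels and gives a second version of shares and ratios. Exon lengths are deposited with the table, per the file headers. Reads were mapped to GRCm38 (mm10) according to the submitters' processing notes. For aligner, counter, annotation release and strand, the choice is not given in the sources used here. Starts in the table count from 0 and are given here from 1. Groups follow the titles.

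Genes passing filterByExpr (minimum count 10) were tested with edgeR 4.0.16 (robust quasi-likelihood, R 4.3.3) after TMM scaling, with Benjamini-Hochberg adjustment over all tested genes and a threshold of 0.05. The biological coefficient of variation was 6.20%. Chi-square values per gene between replicates were 2.06 to 5.80, above counting noise. Ratios had exact two-sided permutation tests over libraries. Intron reads were tested alike. Alternatives used DESeq2 1.42.0, limma 3.58.1 and other scalings, filters, reads and groupings. The fits were tested on simulated data. The genes and lists were chosen with earlier results of these data known. Named beside the 10 genes were up to 5 called genes of each list by p, or the smallest p where none was called. Promoter windows are from RefSeq.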

Additional observations from a re-analysis of the deposited data

How the results depend on the processing

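Depth, 6461213 to 8271553 counts a library, limited the view of Tnni1, at 28 counts in all 6 libraries. The count of 462 changed genes was 765 with no filter, 286 in DESeq2, 32 with GC3 grouped with PG, and 219 to 463 without 1 library. The count of 0 changed thin filament genes was 2 with no filter (Tnnc1, adjusted p = 0.040, and Tpm2, 0.041), 1 in limma voom, 1 in exon junction reads, and 0 to 1 without 1 library. Grouping GC3 with PG gave 0 thin filament partners, 0 kinases and phosphatases and 1 slow or fetal gene. Leaving out 1 library gave 0 to 1 kinases, 1 to 6 slow or fetal genes and 0 to 1 transcription factors. Slow and fetal genes numbered 8 with no filter and 8 without robust fitting. Transcription factors numbered 1 with upper quartile scaling, total counts, no filter or the replicate block (Myocd in each), and 1 with total exon reads, where Myocd itself had an adjusted p of 0.068. On intron reads, 2 thin filament genes were called with no filter (Tnnt2 added, adjusted p = 0.034) and 0 with GC3 grouped with PG. The intron against exon fit called 0 to 2 without 1 library. The cause of these moves was not tested. Total counts moved the median log2 fold change of all genes by 0.04, and called 288 genes higher and 193 lower.

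Signs turned for small differences: Tnni3 (0.026 with total counts; -0.048 to 0.031 without 1 library), Tpm3 (-0.018 with total exon reads, -0.0027 with GC3 grouped with PG), and intron reads of Tpm4 (-0.18 with that grouping; -0.10 to 0.15 without 1 library), Lmod2 (-0.0094 with that grouping) and Tpm2 (-0.28 to 0.0061 without 1 library). The intron against exon difference of Tnnc1 ran from -0.21 to 0.10 without 1 library. The slow share of troponin I, a difference of -0.00031 percentage points, became 0.0087 in exon junction reads and ran from -0.0042 to 0.0074 without 1 library. Tnnt2, Tnnc1, Tpm1, Tpm2, Tpm4, Tmod1 and Lmod2 kept the sign of their exon difference in all 20 alternatives. The share of Tpm1 and the ratio of Tnnt2 to Tnnc1 kept theirs in all 9.

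The replicate numbers of PG and GC share only a number, with correlations of the deviations of 0.013, -0.056 and 0.040 for equal numbers. With the replicate block, 545 genes were called, 0 thin filament genes on exon reads and 1, Tpm1, on intron reads (adjusted p = 0.0043), and the call of Myh7 was lost (0.12). The alternatives on unique intron reads, the grouping of GC3 for intron reads, the intron against exon fit, the ratios between genes and the shares and ratios from RPKM were added after the data had been seen.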
